A study of Mus musculus with 4 samples.

Results

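The E2F transcription factors and their DP partners are described here in intestinal stem cells with and without CREPT. The set holds E2f1, E2f2, E2f3, E2f4, E2f5, E2f6, E2f7, E2f8, Tfdp1 and Tfdp2. It was chosen by gene symbol and makes up 10 of the 18436 genes of the expression table. RNA was sequenced from the intestinal cells of 4 mice on the C57BL/6 strain, sorted for bright green fluorescence. In all 4 mice the Lgr5 gene drove both GFP and a tamoxifen-inducible Cre recombinase, so fluorescence marks cells in which the Lgr5 locus is active, and a deletion made there passes to their descendants. The 2 Lgr5-WT mice had this reporter and Cre (Lgr5-GFP-CreERT2). The 2 Lgr5-CREPTKO mice were also CREPT fl/fl, with exon 3 of Rprd1b, the gene that encodes CREPT, between loxP sites. Every mouse, Lgr5-WT included, received 1 mg tamoxifen a day by intraperitoneal injection for 5 days, and cells were sorted on day 7. The study used male and female mice aged 6 to 8 weeks, without giving the sex of these 4.

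E2F proteins bind a shared DNA word in the promoters of cell cycle genes. E2F1 to E2F6 bind DNA as pairs with a DP protein, while E2F7 and E2F8 bind without one. E2F1, E2F2 and E2F3 can activate transcription once cyclin-dependent kinases have phosphorylated the retinoblastoma protein RB1 and released it. E2F4 and E2F5 carry the related pocket proteins p107 (Rbl1) and p130 (Rbl2) to promoters in resting and early G1 cells, and E2F6 represses genes through a Polycomb complex without binding a pocket protein. E2F7 and E2F8 are themselves induced in S phase and then repress the G1/S genes. Lgr5-positive cells at the base of the crypt divide daily, so the genes that carry a cell from G1 into S phase are active in this population.

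Expression was given as FPKM, the fragments per kilobase of transcript scaled to each library's total. Genotypes were compared with limma on log2(FPKM + 0.5) over the 12621 genes that averaged 0.5 FPKM or more across the mice, and a gene passed the test at an adjusted p below 0.05 (Benjamini-Hochberg). Each log2 fold change is the Lgr5-CREPTKO mean minus the Lgr5-WT mean on that scale. Rprd1b was 17.7 and 18.1 FPKM in Lgr5-WT mice against 6.65 and 7.36 FPKM in Lgr5-CREPTKO mice, a log2 fold change of -1.29 (SE 0.0946, limma adjusted p = 0.028). The sorted cells carried their defining stem cell markers, with Olfm4 between 4932 and 5351 FPKM and Lgr5 between 37.7 and 60.1 FPKM. The libraries also held RNA of secretory cells in unequal amounts. The summed FPKM of 15 enteroendocrine markers was 255 and 364.5 in the Lgr5-WT mice and 80.97 and 94.06 in the Lgr5-CREPTKO mice, and 6 of these markers fell. Of 10 goblet markers 2 fell, as did 2.67% of all genes tested. Of 8 tested tuft markers 0 passed, with 5 lower at an unadjusted p below 0.05 (15.2% of all genes tested). With the replicate block, 4 enteroendocrine and 3 goblet markers passed, and with no filter on low values or no intensity trend 0 of either did. The sum of 9 Paneth cell markers ran from 855.1 in Lgr5-CREPTKO mouse 1 to 2616 in Lgr5-CREPTKO mouse 2, with 0 passing and 0 at an unadjusted p below 0.05. The 13 immune and stromal markers summed to between 1.27 and 8.83 FPKM in each mouse. In bulk RNA, fewer cells of a type and less RNA per cell cannot be told apart.

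No member of the E2F and DP set passed the test. Of the 12621 genes tested, 2.67% passed with lower and 0.412% with higher values in Lgr5-CREPTKO cells, and the counts among the 10 members were 0 and 0. At an unadjusted p below 0.05 the member counts were again 0 and 0, where 15.2% of all genes were lower and 9.27% higher. The smallest unadjusted p of a member was 0.0681, for E2f5. The 10 log2 fold changes ran from -0.25 to 0.11, with 7 below 0 and 3 above it, and their median was -0.12 beside -0.014 over all genes tested. The 95% interval of every member included 0. Every one also stayed within 1 log2 unit of 0, as did the interval of 84.6% of all genes tested. A difference of 1 log2 unit in either direction therefore lay outside the interval of each member.

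**Figure D1:**
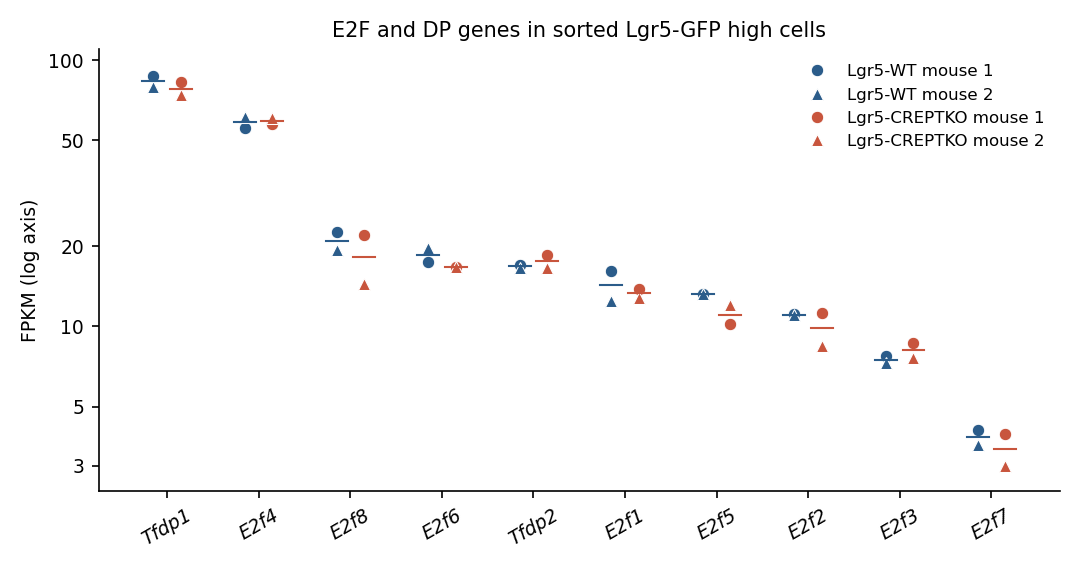
FPKM of the 10 members in each mouse, on a log axis, with Lgr5-WT mice in blue and Lgr5-CREPTKO mice in red, circles for mouse 1, triangles for mouse 2 and a line at each mean. The points of the genotypes overlap for 8 members, and both Lgr5-CREPTKO points lie below both Lgr5-WT points for E2f5 and E2f6.

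FPKM is scaled by transcript length, so the levels of the members can be set beside each other. In Lgr5-WT cells Tfdp1 had the highest mean (83.4 ± 5.30 FPKM, SD, n = 2) and E2f4 the next (58.6 ± 4.02 FPKM). E2f8 followed at 21.0 ± 2.26 FPKM and E2f6 at 18.5 ± 1.57 FPKM, and the mice did not separate this pair. Tfdp2 (16.8 FPKM) lay below E2f6 and above E2f1 (14.3 FPKM) in both mice, and E2f1 in turn was not separated from E2f5 (13.3 FPKM). E2f2 (11.1 FPKM), E2f3 (7.52 FPKM) and E2f7 (3.85 FPKM) were lowest, each above the next in both mice. In Lgr5-CREPTKO cells Tfdp1 and E2f4 were again highest and E2f7 lowest. E2f8, Tfdp2 and E2f6 were not separated there. E2f2 was separated neither from E2f5 above it nor from E2f3 below it, while E2f5 was above E2f3 in both mice.

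The activating members E2f1, E2f2 and E2f3 had overlapping values between genotypes. E2f1, known to induce apoptosis as well as S phase entry, was 16.2 and 12.4 FPKM in Lgr5-WT mice and 13.8 and 12.8 FPKM in Lgr5-CREPTKO mice. Both Lgr5-CREPTKO values fell between the Lgr5-WT values, and the log2 fold change was -0.090 (95% interval -0.46 to 0.28, limma adjusted p = 0.751). Without Lgr5-WT mouse 1 it was 0.092. E2f2, an activator with a large role in blood cells, was 11.14 and 11.03 FPKM in Lgr5-WT mice and 11.2 and 8.47 FPKM in Lgr5-CREPTKO mice. Lgr5-CREPTKO mouse 2 was the low value, and the log2 fold change of -0.18 (-0.56 to 0.20) was 0.013 without that mouse. E2f3, which encodes a long and a short protein form, was 7.76 and 7.27 FPKM in Lgr5-WT mice and 8.67 and 7.61 FPKM in Lgr5-CREPTKO mice, a log2 fold change of 0.11 (-0.18 to 0.39). The sum of the 3 activators was 35.0 and 30.8 FPKM in Lgr5-WT mice and 33.7 and 28.9 FPKM in Lgr5-CREPTKO mice. Mouse 1 was above mouse 2 for this sum in both genotypes.

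In FPKM as deposited, the repressing members held the pair whose genotypes did not overlap. E2f5 was 13.3 and 13.2 FPKM in Lgr5-WT mice and 10.20 and 11.99 FPKM in Lgr5-CREPTKO mice. Both Lgr5-CREPTKO values were below both Lgr5-WT values, with a log2 fold change of -0.25 (SE 0.108, 95% interval -0.53 to 0.027, limma adjusted p = 0.237). This is the lowest log2 fold change of the set, and it did not pass. E2f6 was 17.4 and 19.6 FPKM in Lgr5-WT mice and 16.7 and 16.8 FPKM in Lgr5-CREPTKO mice. Its groups were also apart in FPKM as deposited, by a small gap, and the log2 fold change was -0.14 (-0.38 to 0.098, limma adjusted p = 0.41). After rescaling each mouse to the same FPKM sum, the log2 fold change was -0.065 for E2f6 and -0.18 for E2f5. The E2f6 values of the genotypes then overlapped, while those of E2f5 stayed apart. As deposited, values with both Lgr5-CREPTKO mice below both Lgr5-WT mice were found in 2 of the 10 members and in 31% of all genes tested. The opposite order was found in 0 members and in 25.6% of all genes. E2f4, the main partner of p107 and p130, was 55.8 and 61.5 FPKM in Lgr5-WT mice and 57.6 and 60.6 FPKM in Lgr5-CREPTKO mice. The Lgr5-CREPTKO values lay inside the Lgr5-WT range, and the log2 fold change of 0.013 (-0.20 to 0.22) had the smallest standard error of the set, 0.0814. It was -0.057 without Lgr5-WT mouse 1 and -0.024 without Lgr5-CREPTKO mouse 2.

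The atypical members E2f7 and E2f8 ranked the mice in the same order. E2f8 was 22.6 and 19.4 FPKM in Lgr5-WT mice and 22.1 and 14.4 FPKM in Lgr5-CREPTKO mice. E2f7 was 4.09 and 3.60 FPKM in Lgr5-WT mice and 3.96 and 2.99 FPKM in Lgr5-CREPTKO mice. Both genes had their lowest value in Lgr5-CREPTKO mouse 2, while Lgr5-CREPTKO mouse 1 lay inside the Lgr5-WT range. The log2 fold changes were -0.22 for E2f8 (-0.77 to 0.33) and -0.14 for E2f7 (-0.58 to 0.31), and without Lgr5-CREPTKO mouse 2 they were 0.076 and 0.040. These intervals are the widest of the set. The ratio of E2f7 to E2f8 FPKM was 0.181 and 0.186 in Lgr5-WT mice and 0.180 and 0.208 in Lgr5-CREPTKO mice.

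Tfdp1 and Tfdp2 encode DP1 and DP2, the subunits that E2F1 to E2F6 need for stable DNA binding. Tfdp1 was 87.2 and 79.7 FPKM in Lgr5-WT mice and 82.5 and 73.8 FPKM in Lgr5-CREPTKO mice. Tfdp2 was 17.0 and 16.6 FPKM in Lgr5-WT mice and 18.6 and 16.5 FPKM in Lgr5-CREPTKO mice. Neither gene separated the genotypes, with log2 fold changes of -0.094 for Tfdp1 (-0.33 to 0.14) and 0.059 for Tfdp2 (-0.18 to 0.30). For Tfdp2 it was -0.022 without Lgr5-CREPTKO mouse 1. The ratio of Tfdp1 to Tfdp2 FPKM was 5.12 and 4.81 in Lgr5-WT mice and 4.45 and 4.46 in Lgr5-CREPTKO mice. The genotypes did not overlap in this ratio (exact two-sided permutation p = 0.333, the smallest that 2 against 2 mice can give).

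**Figure D2:**
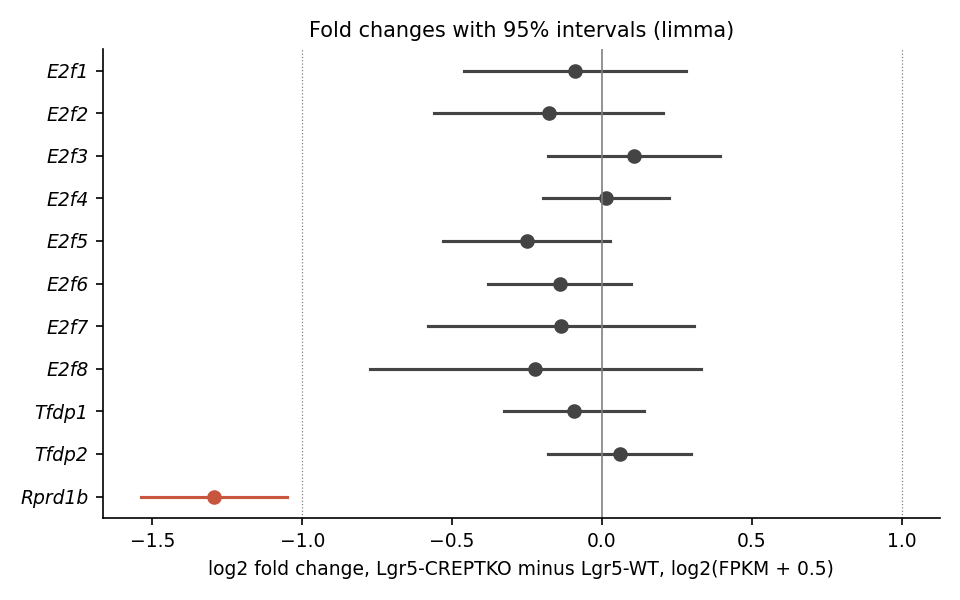
Log2 fold change of each member (Lgr5-CREPTKO minus Lgr5-WT, on log2(FPKM + 0.5)), with bars for limma's 95% interval, ordered by number, and of Rprd1b in red, with dotted lines at -1 and 1. The bar of every member crosses 0, E2f8 has the widest (-0.77 to 0.33), and that of Rprd1b lies below -1.

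The shares of the family held by its classes overlapped between genotypes. The summed FPKM of E2f1 to E2f8 was 148.2 and 148 in Lgr5-WT mice and 144.2 and 135.7 in Lgr5-CREPTKO mice. In FPKM as deposited, both Lgr5-CREPTKO sums were the lower ones (exact two-sided permutation p = 0.333, the smallest possible). The FPKM of the whole table also summed lower in Lgr5-CREPTKO mice (468830 and 473662) than in Lgr5-WT mice (495758 and 499327). Set against these totals, the E2F sums of the genotypes overlapped. E2f4 alone made up 37.6% and 41.5% of that sum in Lgr5-WT mice and 39.9% and 44.7% in Lgr5-CREPTKO mice. The ratio of activating to repressing members was 0.405 and 0.326 in Lgr5-WT mice and 0.399 and 0.323 in Lgr5-CREPTKO mice. Mice of the same number were thus nearer to each other in this ratio than mice of the same genotype. Values of mouse 2 were below those of mouse 1 in both genotypes for 7 of the 10 members, the exceptions being E2f4, E2f5 and E2f6. Over all genes tested, mouse 2 was below mouse 1 in 49.7% of genes in Lgr5-WT cells and in 46.0% in Lgr5-CREPTKO cells. The same number does not mark the same animal, and the labels name no shared batch.

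E2f4 and Tfdp1 both lie on chromosome 8 of GRCm38.p6, and the other members each on a chromosome of their own. The members share no 50-base word with each other in their annotated transcripts. E2f4 (chr8:105297663-105305370, plus strand) is the most compact, with 10 exons in its longest coding transcript, and Tfdp2 (chr9:96196246-96323646, plus strand) spans 127401 bases with 13 exons. By RefSeq, the spans of 5 members, introns included, overlap another gene. E2f7 overlaps Gm51780 by 2630 bases and Tfdp2 overlaps Gm39408 by 1777 bases. E2f5 (chr3:14578602-14606309, plus strand) overlaps Rbis by 21 bases and E2f1 overlaps Necab3 by 7 bases. E2f8 (chr7:48866429-48882073, minus strand) overlaps LOC115486422 by 2584 bases and Gm2788 by 774 bases, and 8.26% of the 50-base words of its transcripts occur in Gm2788 as reverse complement. Of the Tfdp1 words (chr8:13338725-13378448, plus strand), 16.8% also occur in Gm7390. Whether reads were counted by strand is not stated, so the values of these members may include or lose reads of these genes.

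Several E2F genes are known targets of E2F proteins. In the RefSeq promoter windows of GRCm38.p6, from 250 bases before to 50 bases after a start, the words TTTGGCGC, TTTCGCGC, TTTGCCGC and TTTCCCGC were searched on both strands. A word and the reverse complement of another can overlap, and a gene was counted once. Windows were given for 8 members, not for E2f4 and E2f5. A word was in 4 of the 8 (50%), beside 2.60% of the 27025 genes with a window and 4.67% of those tested. E2f2, E2f3, Tfdp1 and Tfdp2 had 2 windows each, and the 27025 genes had 32851 windows in all. The shares were not adjusted for the number of windows searched. The cell cycle homology word TTTGAA, which MuvB complexes recognise, was in the windows of E2f2, E2f3 and E2f8, and in 20.2% of all genes with a window. The matches are shown as the places where these letters lie, each written 5′ to 3′ on the strand of the gene. The word or its reverse complement is in capitals. Each distance is from the start on which the window holding the word was set. For Tfdp1 that start lies inside the gene span given above.
E2f2, chr4:136172294-136172323, plus strand, word 39 bases after the start: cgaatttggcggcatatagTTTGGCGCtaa
E2f3, chr13:29986056-29986085, minus strand, word 11 bases before the start: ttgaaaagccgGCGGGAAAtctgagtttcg
E2f7, chr10:110745230-110745259, plus strand, word 198 bases before the start: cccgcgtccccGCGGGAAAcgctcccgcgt
Tfdp1, chr8:13338697-13338726, plus strand, word 43 bases before the start: gggcgccgaagGCGCGAAAaggcgcgcagg
A match is a run of letters and does not show binding. The log2 fold changes of these 4 genes (-0.18, 0.11, -0.14 and -0.094) did not pass the test, nor did those of the other members. Among the 9498 tested genes with a promoter window, the median log2 fold change was -0.002 for the 444 with a word and -0.018 for the 9054 without. Of the 444 genes, 16 (3.60%) fell and 2 (0.45%) rose, beside 2.67% and 0.412% of all 12621 genes tested.

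The pocket proteins, which hold E2F in its repressed state, did not pass the test either (0 of 3 at an unadjusted p below 0.05). Rb1 was 6.16 and 6.01 FPKM in Lgr5-WT mice and 8.17 and 6.65 FPKM in Lgr5-CREPTKO mice, and Rbl2 averaged 11.3 ± 0.948 FPKM (SD, n = 2) against 12.7 ± 0.919 FPKM. Both genes had their lower values in Lgr5-WT mice, narrowly so for Rbl2, with log2 fold changes of 0.26 and 0.16. This order held in 25.6% of all genes tested. Rbl1, itself an E2F target, overlapped (15.9 and 13.6 against 14.9 and 13.6 FPKM). Among 8 genes of the MuvB core and its partners, which pair with E2F4 in quiescence and with B-MYB or FOXM1 in cycling cells, 0 passed and the median was -0.13. Lin37 alone was under an unadjusted p of 0.05, with a log2 fold change of -0.35 (limma adjusted p = 0.0959). Over all genes tested, 15.2% were lower at that threshold.

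Of the 12 genes of the E2F6 repressor complex, 1 fell and none rose (2.67% and 0.412% of all genes tested), with a median of 0.016. Hdac2, a histone deacetylase, was 63.8 and 59.0 FPKM in Lgr5-WT mice and 41.6 and 41.8 FPKM in Lgr5-CREPTKO mice. The groups were well apart, with a log2 fold change of -0.55 (SE 0.0744, limma adjusted p = 0.0384). The call was lost with the replicate block (limma adjusted p = 0.0579), with rescaling (0.0515) and with quantile normalization (0.0542), as well as with no intensity trend (0.0853) or no filter (0.122). HDAC2 serves many other complexes, and its close relative Hdac1 was 60.8 and 60.4 against 59.4 and 59.1 FPKM. Mga, the DNA-binding scaffold of the complex, was 8.97 and 8.79 against 12.9 and 10.7 FPKM (limma adjusted p = 0.142). Ring1 went the other way, at 13.28 and 14.35 against 11.59 and 11.09 FPKM (limma adjusted p = 0.156). At an unadjusted p below 0.05, 2 of the 12 genes were lower (Hdac2 and Ring1) and 1 higher (Mga). Over all genes tested, 15.2% were lower and 9.27% higher at that threshold. Of 6 tested genes for E2F turnover and cofactors, 0 passed and 2 had an unadjusted p below 0.05. These were Ccna2, whose cyclin ends E2F1 to E2F3 binding in S phase (-0.31), and Trim28 (0.20).

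Among the 14 tested cyclins, kinases and inhibitors that act on the pocket proteins, 1 fell and none rose. Of all genes tested, 2.67% fell and 0.412% rose. In the list, 12 of the 14 values were below 0. Cdk4, a kinase that phosphorylates RB1 with cyclin D, was 292.5 and 286.6 FPKM in Lgr5-WT mice and 171.4 and 178.2 FPKM in Lgr5-CREPTKO mice. The groups lay far apart, with a log2 fold change of -0.73 (SE 0.0667, limma adjusted p = 0.0298). It passed with the replicate block (0.0412) and not with no filter (0.117) or no intensity trend (0.0657). Its alternative, Cdk6, was 22.5 and 19.9 against 27.8 and 27.0 FPKM (limma adjusted p = 0.0967). Ccnd1, which encodes cyclin D1, was 56.3 and 52.0 against 80.8 and 100.2 FPKM, a log2 fold change of 0.73 that missed the threshold (limma adjusted p = 0.0553). The inhibitor Cdkn1c was 3.07 and 4.36 against 1.42 and 1.54 FPKM (limma adjusted p = 0.0638). With any 1 mouse left out, no gene of the table passed, Cdk4 and Hdac2 included, while their log2 fold changes stayed between -0.75 and -0.70 and between -0.61 and -0.50.

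**Figure D3:**
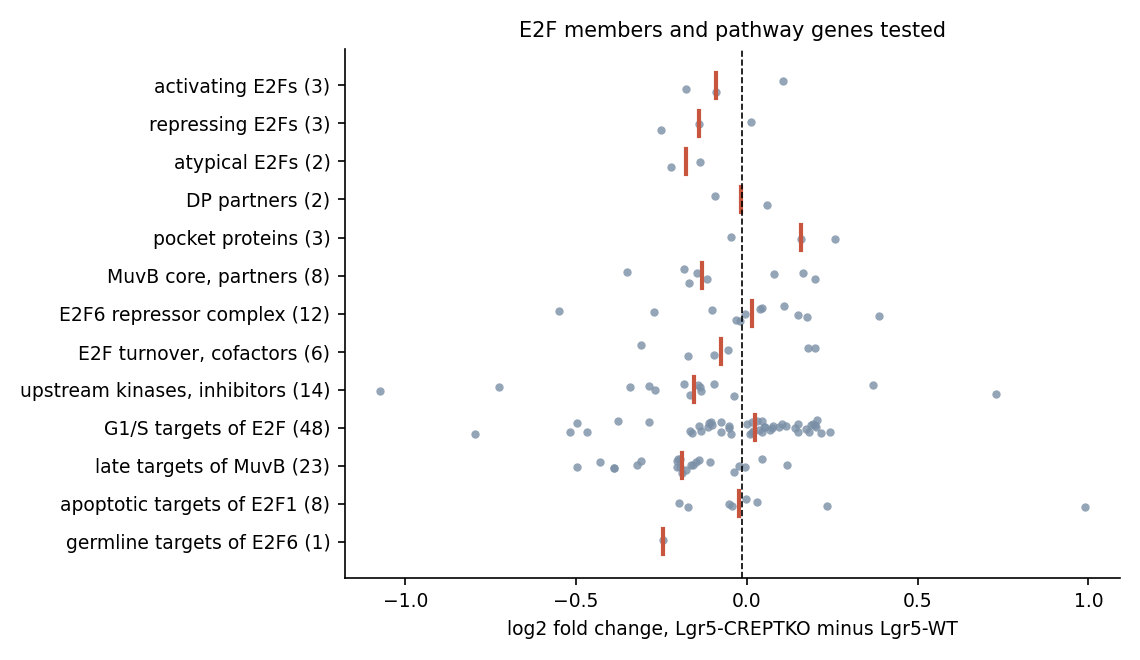
Log2 fold changes (Lgr5-CREPTKO minus Lgr5-WT) of the genes tested in each E2F-related list, 1 point per gene, with a red bar at each list's median and a dashed line at the median of all genes tested (-0.014). The 10 members lie between -0.25 and 0.11, and the genes that passed are Hdac2 (-0.55), Cdk4 (-0.73) and Bbc3 (0.99).

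E2F proteins act through their target genes, which are given by phase of the cell cycle. Of 48 G1/S targets, which encode replication and nucleotide synthesis enzymes, 0 passed, 4 were lower and 1 was higher at an unadjusted p below 0.05. Over all genes tested, 15.2% were lower and 9.27% higher at that threshold. The median of the 48 targets was 0.025, with 20 values below 0 and 28 above. The lowest was Tyms, the thymidylate synthase, at 24.4 and 24.2 FPKM in Lgr5-WT mice and 15.7 and 12.2 FPKM in Lgr5-CREPTKO mice (-0.79, limma adjusted p = 0.056). Tk1, the thymidine kinase, was 59.5 and 54.8 against 42.0 and 37.6 FPKM (-0.52, limma adjusted p = 0.0586). The replicative helicase gene Mcm2 was 65.1 and 55.8 against 62.4 and 64.6 FPKM, and the clamp gene Pcna 254.8 and 211.6 against 229.8 and 192.8 FPKM.

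The late cell cycle targets, which MuvB with B-MYB and FOXM1 drives into mitosis, leaned lower. Of 23 genes, 21 were below 0 with a median of -0.19, and 0 passed. Both Lgr5-CREPTKO values were below both Lgr5-WT values in 15 of the 23 genes (31% of all genes tested), and the reverse held in 1 (25.6% of all genes). At an unadjusted p below 0.05, where 15.2% of all genes tested were lower, 4 of the 23 were lower, namely Ccna2, Cdc25b, Birc5 and Ube2c. Birc5, which encodes survivin, was 58.7 and 54.0 against 41.9 and 43.9 FPKM (-0.39, limma adjusted p = 0.0701). Ccnb1 was 25.0 and 25.7 against 20.9 and 23.0 FPKM. The word TTTGAA was in the promoter window of 11 of 18 of these genes (61.1%), and an E2F word in 18 of 39 G1/S targets (46.2%).

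Of 8 tested apoptotic targets of E2F1, 1 rose (0.412% of all genes tested). Bbc3, which encodes the BH3 protein PUMA and is also a target of p53, was 7.50 and 5.70 FPKM in Lgr5-WT mice and 13.1 and 13.8 FPKM in Lgr5-CREPTKO mice (0.99, SE 0.148, limma adjusted p = 0.046). It did not pass with any 1 mouse left out, nor with the replicate block (limma adjusted p = 0.0571), no filter (0.132) or no intensity trend (0.0816). Apaf1, the scaffold of the apoptosome, was 11.07 and 10.77 against 10.97 and 10.83 FPKM.

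Within each genotype, the G1/S targets ordered the mice as the activating and atypical E2Fs did. Of the 48 G1/S targets, 46 were lower in Lgr5-WT mouse 2 than in Lgr5-WT mouse 1 (median log2 difference -0.24), and 39 were lower in Lgr5-CREPTKO mouse 2 than in Lgr5-CREPTKO mouse 1 (-0.14). All 12 enterocyte markers had the opposite order, with the second mouse higher in both genotypes. Among the late targets, 14 and 13 of 23 were lower in the second mouse. Separately, 5 members (E2f2, E2f7, E2f8, Tfdp1 and Tfdp2) had their lowest value in Lgr5-CREPTKO mouse 2. For Tfdp2 this was narrow, at 16.54 against 16.56 FPKM in Lgr5-WT mouse 2. The share of all genes with their lowest value in Lgr5-CREPTKO mouse 2 was not computed. The Paneth markers were all higher in Lgr5-CREPTKO mouse 2 than in Lgr5-CREPTKO mouse 1. The part of these cell type differences in the E2F values was not tested.

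**Figure D4:**
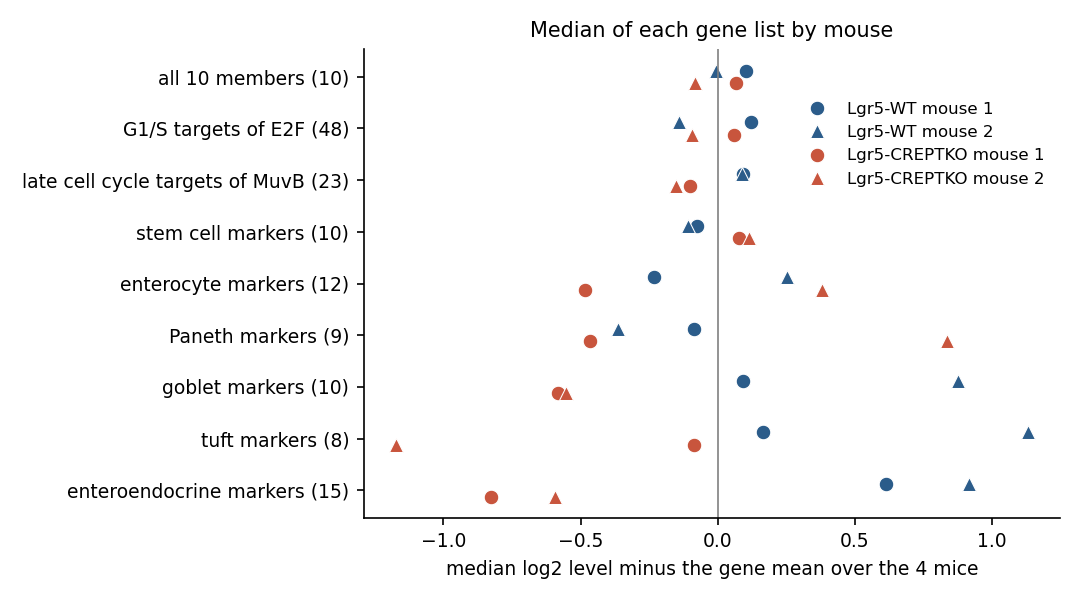
Median over the genes of each list of the log2 level minus the gene's mean over the 4 mice, with circles for mouse 1 and triangles for mouse 2 of each genotype. For the G1/S targets the circles (0.12 and 0.060) lie above the triangles (-0.14 and -0.093) in both genotypes, and for the enterocyte markers the triangles lie above the circles.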

How the data were processed

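The authors deposited 1 table of FPKM values, rounded to 2 decimals, with 1 column for each of the 4 mice. Per the paper's methods, BGISEQ reads were mapped to GRCm38.p6 transcripts with Bowtie2 and quantified with RSEM, and the submitters' processing notes also list HISAT and mm10. The table holds no counts, so depth is unknown and no counting error was computed. Columns were matched to mice by the sample titles. After adding 0.5 and taking log2, the 12621 of 18436 genes that averaged 0.5 FPKM or more were tested with lmFit and eBayes (intensity trend) of limma 3.58.1 under R 4.3.3, with Benjamini-Hochberg adjustment. The study's own test models read counts and could not be applied to FPKM. Each p-value sets the genotype difference against a variance from 2 mice per genotype, which eBayes moderates toward a trend over all genes tested. The procedure was tested on simulated data. The genes named are the 10 members, the pocket protein genes, the 3 genes nearest in pattern to the member with the smallest p, Rprd1b and Lgr5. From the MuvB, E2F6 and turnover lists, only genes with an unadjusted p below 0.05 are named. In the other E2F lists and the stem cell markers, those that passed or the 2 with the smallest p are named. The remaining marker lists are given by counts and sums, without naming the genes that passed. Olfm4, Hdac1, Cdk6, Ccnd1, Cdkn1c, Mcm2, Pcna, Ccnb1, Cdc25b, Ube2c and Apaf1 are not named by these rules and were picked with their values known.

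The members and the lists were chosen with earlier results of these data known. Promoter windows are from RefSeq and transcripts from GENCODE M21, both on GRCm38.p6. Sums and ratios of FPKM were compared with an exact two-sided permutation test. The pseudocount, filter, scaling, trend, replicate block and each mouse left out were varied. Python 3.11.15 with pandas 2.3.3 was used for the summaries.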

Additional observations from a re-analysis of the deposited data

How the results depend on the processing

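No member passed the test under any of 12 alternatives, where the smallest adjusted p was 0.222. Of 120 member values, 113 kept their direction and 7 turned, all with 1 mouse left out. Those ranges were -0.27 to 0.092 for E2f1, -0.37 to 0.013 for E2f2, -0.057 to 0.082 for E2f4, -0.31 to 0.040 for E2f7, -0.52 to 0.076 for E2f8 and -0.022 to 0.14 for Tfdp2. The number of genes with lower values (337) became 0 with no filter, 4 with no intensity trend and 0 with any mouse left out. The number with higher values (52) became 0 with no filter, 85 after rescaling each mouse to the same FPKM sum, 0 with no trend and 0 with any mouse left out. With the replicate number as a block these counts were 168 and 15. The number does not pair the mice by label, and deviations of same-numbered mice had r = -0.0266 across 12621 genes. The E2F6 complex had 0 calls in place of 1 with no filter, rescaling, quantile normalization, no trend, the block or any mouse left out. The upstream list had 0 with no filter, no trend or any mouse left out, and 2 with a mean of at least 1 FPKM, rescaling or quantile normalization, where Ccnd1 joined Cdk4. The G1/S list had 1 (Tyms) with a mean of at least 1 FPKM. The apoptotic list had 0 with no filter, no trend, the block or any mouse left out. Rprd1b stayed at -1.29 but missed the threshold with no filter (adjusted p = 0.117) and no trend (0.0623), and ran from -1.36 to -1.23 with a mouse left out. Rbl1 turned to 0.029 after rescaling, and with a mouse left out it ran from -0.16 to 0.060, and Mybl2 from -0.053 to 0.45. The cause of these changes was not tested, apart from fewer samples in the fits without a mouse. With 2 mice per genotype and no counts, differences inside the printed intervals could not be detected.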

Other observations

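Stem cell markers had higher values in Lgr5-CREPTKO cells for 9 of 10 genes, with a median log2 fold change of 0.22. None passed the test, and 5 were higher at an unadjusted p below 0.05 (9.27% of all genes tested). Both Lgr5-CREPTKO values were above both Lgr5-WT values in 8 (25.6% of all genes tested). Lgr5, the receptor that marks these cells and drives the sorted reporter, was 47.7 and 37.7 FPKM in Lgr5-WT mice and 52.0 and 60.1 FPKM in Lgr5-CREPTKO mice (0.40, limma adjusted p = 0.176). Axin2, a target and inhibitor of Wnt signalling, was 111.4 and 101.6 against 141.1 and 146.0 FPKM (0.43, limma adjusted p = 0.0601). Slc12a2, an ion transporter enriched in crypt base cells, was 425.3 and 380.2 against 574.1 and 517.0 FPKM (0.44, limma adjusted p = 0.0811).

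The genes whose pattern over the 4 mice was nearest to that of E2f5, among 10721 with a mean of at least 2 FPKM, were Pigyl, Scly and Sowahb, by the root of the squared log2 differences after centring. Scly was 24.2 and 24.1 FPKM in Lgr5-WT mice and 18.6 and 21.5 FPKM in Lgr5-CREPTKO mice, with the lowest value in Lgr5-CREPTKO mouse 1 as for E2f5. The distance is a description over 4 points.

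Germline genes of the kind E2F6 silences in somatic cells had low values. Of 8 such genes measured, 1 passed the filter on low values, Tdrd1, at 1.42 and 0.88 FPKM in Lgr5-WT mice and 0.79 and 0.96 FPKM in Lgr5-CREPTKO mice (limma adjusted p = 0.602).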
